A study of Mus musculus with 8 samples.

Results

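The genes described are the translation initiation and elongation factors of the mouse, taken as every row of the count table whose symbol begins with Eif or Eef followed by a digit. The X- and Y-linked copies of the gamma subunit of eIF2 were left out. The rule found 63 of 24516 genes, 53 initiation genes (Eif) and 10 elongation genes (Eef). Of these, 60 (95.2%) had enough counts to be tested, 50 Eif and 10 Eef, against 15075 (61.5%) of all genes. The other 3, Eif3j1, Eif3j2 and Eif4e1b, had 0 counts in all 8 libraries and are described no further. Eif3j1 and Eif3j2 are near-identical copies: 91.8% of the 50-base words of the Eif3j2 transcript also occur in the transcripts of another gene, and the part of such shared reads in the 0 counts was not tested.

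RNA came from hearts of mice at postnatal day 40, all from 1 litter per the labels. A conserved enhancer of Actn2, which encodes the alpha-actinin of the sarcomeric Z-disc, had been deleted with CRISPR/Cas9. The groups were wild type (n = 2), heterozygous for the deletion (n = 3) and homozygous for it (n = 3). The labels give no strain, sex, founder line or sequence of the deletion, and whether the alleles come from 1 founder is not stated there.

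Translation begins when eIF2 brings the initiator tRNA to the small ribosomal subunit, which eIF1, eIF1A and eIF3 hold open for scanning. The cap-binding eIF4F complex, made of eIF4E, the helicase eIF4A and the scaffold eIF4G, recruits the mRNA, and the eIF4E-binding proteins (4E-BPs) compete with the scaffold for eIF4E. In elongation, eEF1A delivers each aminoacyl-tRNA, the eEF1B complex recharges eEF1A with GTP, and eEF2 moves the ribosome along. Many mRNAs of this machinery start with a run of pyrimidines after a C, the terminal oligopyrimidine (TOP) motif, through which mTORC1 controls their translation. Heart and skeletal muscle exchange the ubiquitous eEF1A1 for eEF1A2 after birth.

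Some facts of the libraries bear on every result below. Totals ran from 22230090 to 55902737 counts. Correlations of log2 levels across genes, which are no independent replicates, were 0.952 between the 2 wild-type hearts and 0.969 to 0.982 between pairs of deletion hearts. They were 0.957 to 0.966 between wild type 1 and deletion hearts, and 0.927 to 0.935 between wild type 2 and deletion hearts. Wild type 1 thus correlated more with every deletion heart than with wild type 2. Actn2 was at 2187 and 2703 CPM (counts in a library brought to 1e+06 counts, after TMM scaling) in wild type, 1546 to 1693 in heterozygous and 1611 to 2115 in homozygous hearts. Summed marker levels of some cell types also separated the wild-type from the deletion hearts, which was not tested. Of all genes, 22.1% lay below and 20.7% above all deletion libraries in both wild-type libraries. The summed level of 4 of 4 smooth muscle markers was 463 and 520 CPM in wild type, 111 to 209 in heterozygous and 145 to 254 in homozygous hearts. The 5 cardiomyocyte markers (Myh6, Tnnt2, Actc1, Tnni3 and Ryr2) summed to 58060 and 56930 CPM in wild type and to 44320 to 53250 CPM in the deletion hearts. The 5 endothelial markers summed to 1025 and 992 CPM against 704 to 945 CPM. Fibroblast, atrial, adipocyte and blood sums overlapped between wild type and deletion hearts; the macrophage sum was 194 and 192 CPM in wild type and 141 to 187 CPM in the others. The globin genes Hba-a1, Hba-a2, Hbb-bs and Hbb-bt and the skeletal Myh4 were at 0 in every library. In bulk RNA, fewer cells of a type and less RNA per cell cannot be told apart, and the part of these markers in the results was not tested.

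The factors were called in both directions in each deletion genotype. In homozygous against wild-type hearts, 11 of 50 initiation genes were higher (22%) and 15 lower (30%) at an adjusted p under 0.05 in edgeR's quasi-likelihood test, beside 15.3% higher and 12.4% lower of all 15075 genes. Their median log2 fold change was -0.02, with a range of -1.46 to 1.89, beside a median of -0.03 over all genes. Of 10 elongation genes, 1 was higher (10%) and 4 were lower (40%), with a median of -0.39. In heterozygous against wild-type hearts, 13 initiation genes were higher (26%) and 14 lower (28%), and again 1 elongation gene was higher and 4 were lower, with medians of -0.02 and -0.38. The background there was 15.2% higher and 12.8% lower. Without the kinases, binding proteins and methyltransferases that carry the prefixes, the counts in homozygous hearts were 9 higher and 14 lower of 42 initiation factors proper. Of the 7 elongation genes left, 1 was higher and 4 were lower. The higher one is Eef1e1, a scaffold of the multi-tRNA synthetase complex that was kept in this count. Wild type 2 carried many of these calls: without it, initiation genes were 7 higher and 2 lower in homozygous and 11 higher and 3 lower in heterozygous hearts, and elongation genes 0 higher and 2 lower in both. Calls over all genes fell there too, to 10.1% higher and 3.58% lower in homozygous and 10.5% and 4.62% in heterozygous hearts. Values after a gene-property correction, which removes each library's trends with GC content and with the lengths of transcripts and their 3′ UTRs, stand beside many of the genes; the calls that held in homozygous hearts are listed with the correction further down.

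Both comparisons use the same 2 wild-type libraries, so their calls are not independent of each other. Side by side, 10 initiation genes were called higher in both and 14 lower in both. Eif4g1 was called higher and Eif3l lower in homozygous hearts alone, and Eif2a, Eif2s1 and Eif5 were called higher in heterozygous hearts alone; whether these differ between the genotypes is the direct comparison given further down, where none was called. All 5 elongation calls were the same in both. Both wild-type libraries lay below all 6 deletion libraries for 15 initiation genes and 1 elongation gene, and above them for 17 and 4, beside 22.1% of all genes below and 20.7% above. For the other 18 initiation and 5 elongation genes the wild-type and deletion libraries overlapped.

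**Figure D1:**
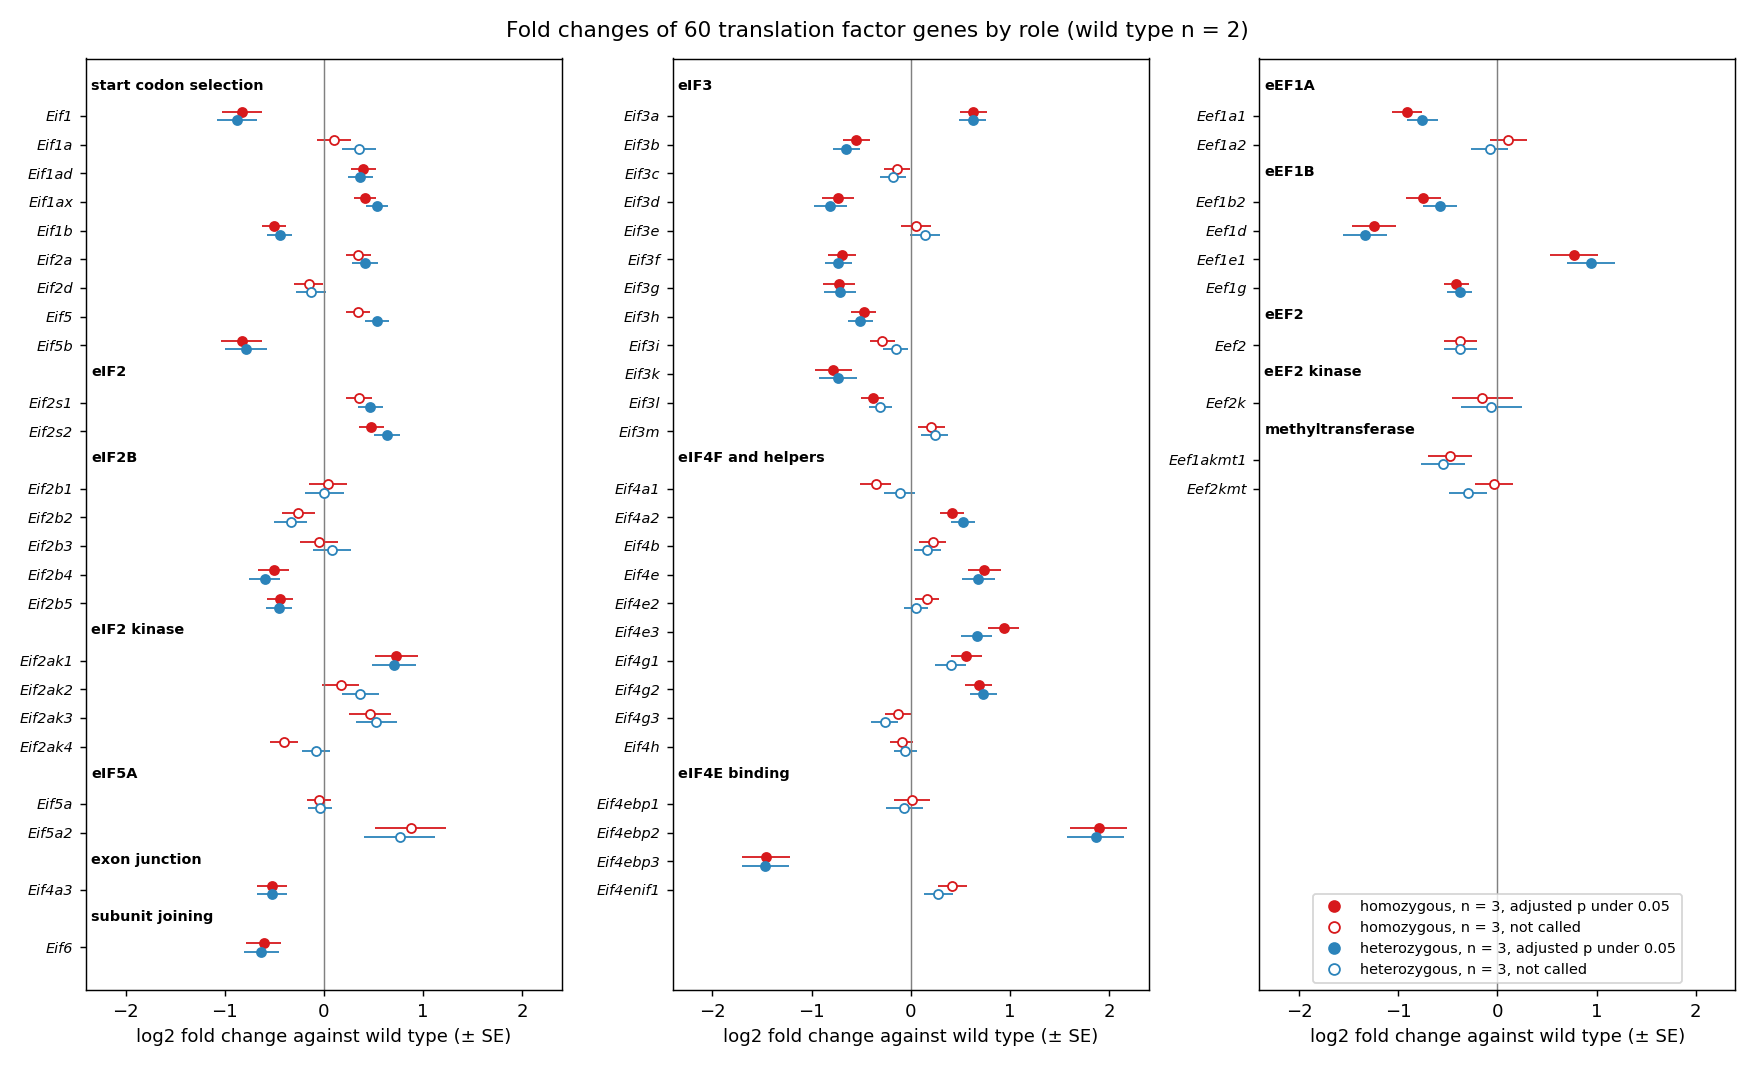
Log2 fold change against wild type (x axis, ± SE of the fit) of the 60 tested genes, grouped by role, in homozygous (red) and heterozygous (blue) hearts, n = 3 each against n = 2; filled points have an adjusted p under 0.05. Most eIF3 and eEF1B subunits lie left of 0, eIF4F members with a filled point lie right of 0, and Eif4ebp2 (1.89) and Eif4ebp3 (-1.46) are the extremes in homozygous hearts. Eef1e1, a scaffold of the multi-tRNA synthetase complex, is plotted with eEF1B and lies right of 0.

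The elongation genes that fell were Eef1a1 and 3 subunits of the eEF1B complex. Eef1a1 (ENSMUSG00000037742.14, chromosome 9, 78478449 to 78489151, minus strand, mm10), the ubiquitous carrier of aminoacyl-tRNA, was at 1543 and 2176 CPM in the wild-type hearts, at 1082, 1074 and 1147 CPM in the heterozygous hearts, and at 984, 1002 and 979 CPM in the homozygous hearts. Every wild-type value was above every deletion value. Eef1a1 fell by 0.91 on the log2 scale in homozygous hearts (SE 0.16, adjusted p = 0.00262, edgeR) and by 0.76 in heterozygous hearts (SE 0.16, adjusted p = 0.00582). Its values were -0.61 (adjusted p = 0.0104) and -0.46 (adjusted p = 0.0361) without wild type 2. About 59.2% of the 50-base words of its transcript occur in transcripts of 20 other genes, so reads could be split among them.

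Eef1a2 (chromosome 2, 181147653 to 181157014, minus strand), the muscle and neuron form, did not pass the test. It was at 1580 and 1066 CPM in wild type, 1280, 1100 and 1384 CPM in heterozygous and 1558, 1301 and 1422 CPM in homozygous hearts, so the groups overlapped. Its log2 fold change was 0.11 (SE 0.19, adjusted p = 0.7) in homozygous and -0.08 (SE 0.19, adjusted p = 0.791) in heterozygous hearts. The wild-type libraries themselves stood 0.57 apart on the log2 scale, with wild type 1 higher, opposite to Eef1a1. Per kilobase of exon, Eef1a2 made up 55.1% and 36.9% of the eEF1A mRNA in wild type, 58.6%, 55.1% and 59.1% in heterozygous hearts, and 65.4%, 60.8% and 63.5% in homozygous hearts. Every homozygous share was above every wild-type and heterozygous share, while wild type 1 equalled the lowest heterozygous heart to the digits given. No test was made of these shares, and they depend on how the reads that Eef1a1 shares with other genes were counted. Between homozygous and heterozygous hearts, Eef1a1 (-0.16) and Eef1a2 (0.19) were not called.

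The eEF1B complex is the exchange factor that reloads eEF1A with GTP. Its catalytic delta subunit, Eef1d (ENSMUSG00000055762.16, chromosome 15, 75894205 to 75909556, minus strand), changed most among the elongation genes: 223 and 424 CPM in wild type, 116, 123 and 146 CPM in heterozygous, and 137, 134 and 139 CPM in homozygous hearts. The 2 wild-type values lay far apart, yet both exceeded all others. Eef1d fell by 1.24 in homozygous (SE 0.22, adjusted p = 0.00335) and by 1.34 in heterozygous hearts (SE 0.22, adjusted p = 0.00217). Without wild type 2, the higher of the pair, Eef1d was at -0.67 (adjusted p = 0.0102) and -0.77 (adjusted p = 0.00455). The catalytic beta subunit, Eef1b2 (chromosome 1, 63176825 to 63180486, plus strand), was at 215 and 339 CPM in wild type against 169 to 197 CPM in heterozygous and 159 to 173 CPM in homozygous hearts. Eef1b2 fell by 0.75 (adjusted p = 0.0108) and by 0.58 (adjusted p = 0.032). Without wild type 2 its values were -0.35 (adjusted p = 0.111) and -0.18 (adjusted p = 0.413), so the call rested on that library. The structural gamma subunit, Eef1g, was at 333 and 389 CPM in wild type and 258 to 294 CPM in the deletion hearts; it fell by 0.41 (adjusted p = 0.0355) and 0.38 (adjusted p = 0.0488), and was -0.26 (adjusted p = 0.231) and -0.23 (adjusted p = 0.289) without wild type 2. Its transcript shares 64.3% of its 50-base words with 5 other genes.

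Eef1e1 encodes a scaffold protein of the multi-tRNA synthetase complex that is related to the eEF1B subunits. It was the elongation gene that rose, from 7.94 and 6.83 CPM in wild type to 18.9, 10.6 and 13.1 CPM in heterozygous and 13.0, 12.5 and 12.4 CPM in homozygous hearts. The log2 fold changes were 0.94 (SE 0.24, adjusted p = 0.0159) and 0.77 (SE 0.24, adjusted p = 0.0356), and without wild type 2 they were 0.87 (adjusted p = 0.0747) and 0.70 (adjusted p = 0.147), in heterozygous and homozygous hearts in that order. After the correction they were 0.69 (adjusted p = 0.0695) and 0.57 (adjusted p = 0.115).

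Eef2, the translocase, was the most abundant elongation mRNA in CPM and did not pass the test. It was at 2150 and 2855 CPM in wild type, 1808, 1764 and 2222 CPM in heterozygous, and 1929, 1854 and 2015 CPM in homozygous hearts. Heterozygous 3 was above wild type 1, and both log2 fold changes were -0.37 (SE 0.16, adjusted p = 0.116 and 0.115). Eef2k, the kinase that inactivates eEF2, was at 79.5 and 41.6 CPM in wild type and spanned 44.5 to 81.4 CPM in the deletion hearts. Eef1akmt1 and Eef2kmt, methyltransferases of eEF1A and eEF2, were not called either (adjusted p = 0.14 and 0.903 in homozygous, 0.093 and 0.28 in heterozygous hearts). Summed over the 10 elongation genes, levels were 6168 and 7353 CPM in wild type, 4895, 4576 and 5477 CPM in heterozygous and 5143, 4810 and 5119 CPM in homozygous hearts. The summed initiation genes overlapped, at 6547 and 7313 CPM in wild type and 7019 to 7401 CPM in the deletion hearts.

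**Figure D2:**
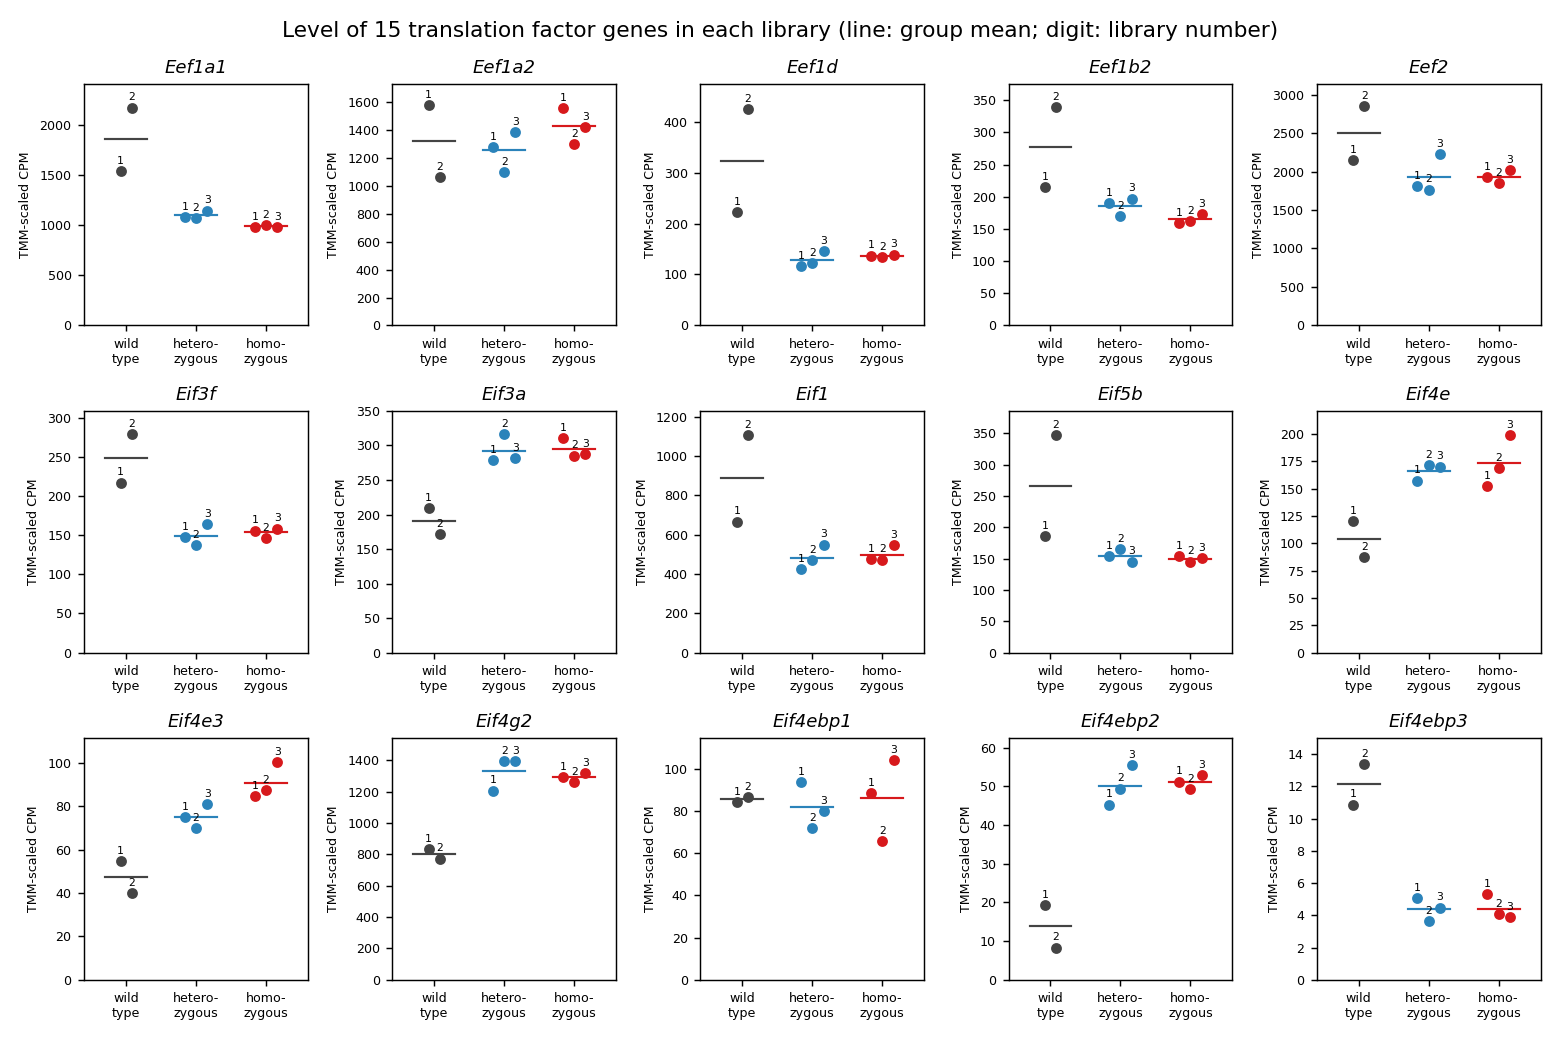
TMM-scaled CPM (y axis, from 0) of 15 factor genes in each library, with the library's number; lines are group means. Both wild-type points lie above all deletion points for Eef1a1, Eef1d, Eef1b2, Eif3f, Eif1, Eif5b and Eif4ebp3 and below them for Eif3a, Eif4e, Eif4e3, Eif4g2 and Eif4ebp2, while Eef1a2, Eef2 and Eif4ebp1 overlap.

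The starts of Eef1b2, Eef1d and Eif3f transcripts are shown. These 3 genes fell in both genotypes and have an annotated transcript that opens with a TOP-like run. Eif2b4, counted below, meets the same terms but is not printed, nor are the runs of factors that rose. The starts of Eef1a1 and Eif4ebp2, which also moved, are shown beside them. The printed starts are the first 24 bases of a protein-coding transcript of GENCODE vM21 (mm10), 5′ to 3′, with the C and the C or T bases that follow it in capitals. Where a gene has several such transcripts, the one with the longest run was read, out of 15 for Eef1d and 2 for Eef1b2. Where no transcript of a gene starts with such a run, its longest coding one was read. They lie at chr1:63177130-63177153 (plus), chr15:75909283-75909306 (minus), chr7:108934417-108934440 (plus), chr9:78481701-78481724 (minus) and chr10:61452638-61452661 (minus).
Eef1b2: CTTTTTTTCCCTCagcgctggccg
Eef1d: CTCTCCTTTgcagtcctgagctcg
Eif3f: CTCTTTCTCggcaagatggcttct
Eef1a1: ttcccgagggtgggggagaacggt
Eif4ebp2: cgagagcaggcgagttgagagccg
A C followed by at least 4 bases that are each C or T opened 1261 of 58797 annotated protein-coding transcripts (2.14%) and at least 1 transcript of 1121 of 21877 genes (5.12%). Among the factors, 8 of 63 genes (12.7%) had such a transcript. Of these 8, Eef1b2, Eef1d, Eif2b4 and Eif3f were lower in both genotypes, Eif4a2 and Eif4g2 were higher in both, Eif2s1 was higher in heterozygous hearts and Eif3m was not called. The annotated start of Eef1a1, an established TOP mRNA, does not show the run, so a missing run in the annotation says nothing about the motif at the start that is used in heart. Nor does an annotated run show that its start is used in heart. Some starts read lie inside the gene. On the minus strand, that of Eif2b4 is at 31191199 in a gene reaching to 31193430. That of Eif4g2 is at 111074249 in a gene reaching to 111083030.

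Of 11 factor mRNAs generally known as TOP mRNAs (Eef1a1, Eef1a2, Eef1b2, Eef1d, Eef1g, Eef2, Eif3a, Eif3e, Eif3f, Eif3h and Eif4b), 6 were lower and 1, Eif3a, was higher in each genotype. That is 54.5% lower and 9.09% higher. Of all genes, 12.4% were lower and 15.3% higher in homozygous hearts, and 12.8% and 15.2% in heterozygous hearts. The median log2 fold change was -0.41 in homozygous and -0.38 in heterozygous hearts. In the fit without wild type 2, 3 were lower and 1 higher in each. Eef1a2, Eef2, Eif3e and Eif4b were not called; Eif3e was at 0.06 (adjusted p = 0.808) and Eif4b at 0.22 (adjusted p = 0.257) in homozygous hearts. After the gene-property correction, Eef1g, Eif3h and Eif3a lost their calls in both genotypes. All 11 genes are among the factors counted above, and Eef1a1, Eef1b2, Eef1d and Eef1g are the elongation genes called lower there.

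eIF3, the largest initiation factor, links the small ribosomal subunit to the mRNA-bound eIF4F. Of 12 tested subunits, 7 were lower in homozygous hearts (Eif3b, Eif3d, Eif3f, Eif3g, Eif3h, Eif3k and Eif3l) and the same without Eif3l in heterozygous hearts, while Eif3a was higher in both. Of all genes, 12.4% were lower and 15.3% higher in homozygous hearts, and 12.8% and 15.2% in heterozygous hearts. The medians of the eIF3 subunits were -0.43 and -0.41. Eif3f (ENSMUSG00000031029.6, chromosome 7, 108934417 to 108942951, plus strand) was at 217 and 279 CPM in wild type, 148, 137 and 164 CPM in heterozygous, and 156, 147 and 158 CPM in homozygous hearts. All deletion values were below both wild-type values. Eif3f fell by 0.69 (SE 0.14, adjusted p = 0.00551) and by 0.73 (SE 0.14, adjusted p = 0.00399). Eif3a (chromosome 19, 60761117 to 60790658, minus strand), the scaffold on which the other subunits assemble, was at 209 and 171 CPM in wild type against 279 to 317 CPM in heterozygous and 285 to 311 CPM in homozygous hearts. Eif3a rose by 0.63 (SE 0.14, adjusted p = 0.00773) and 0.62 (SE 0.14, adjusted p = 0.00802), and was 0.20 (adjusted p = 0.239) and 0.20 (adjusted p = 0.257) after the correction. It is also the subunit with the longest transcript tested here, 5125 bases, against 774 bases for Eif3k, which fell by 0.78 (adjusted p = 0.0121) and 0.73 (adjusted p = 0.0157).

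Among the remaining subunits, Eif3d, which itself can bind caps, fell by 0.73 and 0.81 (adjusted p = 0.00882 and 0.0055), and Eif3g, an RNA-binding subunit, by 0.72 in both (adjusted p = 0.00805 and 0.00824). Eif3b fell by 0.55 and 0.65 (adjusted p = 0.0135 and 0.00618) and Eif3h by 0.47 and 0.51 (adjusted p = 0.0183 and 0.0131). Eif3c, Eif3e, Eif3i and Eif3m were not called in either genotype. Per kilobase of exon, levels within eIF3 ran from 16.6 CPM (Eif3d) to 153 CPM (Eif3h) in wild type, a ratio of 9.23, and from 9.99 to 111 CPM in homozygous hearts, a ratio of 11.1. Without wild type 2, Eif3f and Eif3a kept their calls in both genotypes, while Eif3g was at -0.36 (adjusted p = 0.0783), Eif3d at -0.37 (adjusted p = 0.0997), Eif3h at -0.34 (adjusted p = 0.122), Eif3b at -0.32 (adjusted p = 0.137), Eif3k at -0.34 (adjusted p = 0.15) and Eif3l at -0.24 (adjusted p = 0.251) in homozygous hearts. In heterozygous hearts Eif3d kept its call there (-0.44, adjusted p = 0.0471), and Eif3b was at -0.42 (adjusted p = 0.0507), Eif3h at -0.38 (adjusted p = 0.0841), Eif3g at -0.35 (adjusted p = 0.0782) and Eif3k at -0.30 (adjusted p = 0.205).

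The calls in the cap-binding arm were all in the higher direction before the correction. Of 10 tested genes of eIF4F and its helpers, 5 were higher in homozygous hearts (Eif4a2, Eif4e, Eif4e3, Eif4g1 and Eif4g2), 4 in heterozygous hearts (the same without Eif4g1), and none was lower; Eif4a1, Eif4b, Eif4e2, Eif4g3 and Eif4h were not called in either genotype. Of all genes, 15.3% were higher and 12.4% lower in homozygous hearts, and 15.2% and 12.8% in heterozygous hearts. In each genotype 7 of the 10 log2 fold changes lay above 0 and 3 below. Without wild type 2, 3 were higher and none lower in each; after the gene-property correction, 2 were higher and 1 lower in homozygous and none higher and 1 lower in heterozygous hearts. Eif4e3 (chromosome 6, 99625135 to 99666771, minus strand), a cap-binding paralogue of eIF4E, was at 54.8 and 40.1 CPM in wild type, 75.0, 69.9 and 80.9 CPM in heterozygous, and 84.6, 87.6 and 100.2 CPM in homozygous hearts. The 3 genotypes did not overlap, and the share of all genes that separate in this way is not given. Eif4e3 rose by 0.94 in homozygous (SE 0.16, adjusted p = 0.00226) and by 0.67 in heterozygous hearts (SE 0.15, adjusted p = 0.00982), where the corrected value was 0.47 (adjusted p = 0.0597). Its difference between the deletion genotypes, 0.27 (SE 0.13, adjusted p = 1), did not pass.

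Eif4e, the main cap-binding protein, was at 120 and 87.4 CPM in wild type and 152 to 199 CPM in the deletion hearts. It rose by 0.74 (adjusted p = 0.00867) and 0.68 (adjusted p = 0.012), and was 0.50 (adjusted p = 0.0589) in heterozygous hearts without wild type 2. After the correction Eif4e was at 0.13 (adjusted p = 0.543) and 0.05 (adjusted p = 0.846). Eif4g2 (chromosome 7, 111067750 to 111083030, minus strand), a scaffold without an eIF4E site that serves cap-independent initiation, was at 834 and 773 CPM in wild type, 1208, 1396 and 1398 CPM in heterozygous and 1295, 1261 and 1320 CPM in homozygous hearts. The wild-type libraries lay close together here, and Eif4g2 rose by 0.69 (SE 0.14, adjusted p = 0.00504) and 0.73 (SE 0.14, adjusted p = 0.00351). The correction brought Eif4g2 to -0.00 (adjusted p = 0.993) and 0.03 (adjusted p = 0.91). Eif4g1, the main scaffold, was at 491 and 361 CPM in wild type, 542 to 599 CPM in heterozygous and 575 to 665 CPM in homozygous hearts. Eif4g1 rose in homozygous hearts by 0.56 (adjusted p = 0.0241) and was at 0.41 (adjusted p = 0.0783) in heterozygous hearts; without wild type 2 the homozygous value was 0.39 (adjusted p = 0.108).

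The helicase comes from 2 genes. Eif4a2 rose by 0.42 (adjusted p = 0.0298) and 0.53 (adjusted p = 0.0108), from 445 and 417 CPM to 606, 616 and 643 CPM in heterozygous and 543, 599 and 585 CPM in homozygous hearts. Without wild type 2 the homozygous value was 0.41 (adjusted p = 0.076), and the corrected values were 0.07 (adjusted p = 0.728) and 0.16 (adjusted p = 0.381). Eif4a1 was at 192 and 240 CPM in wild type and 164 to 235 CPM in the deletion hearts, with log2 fold changes of -0.36 (adjusted p = 0.118) and -0.11 (adjusted p = 0.635). Per kilobase, Eif4a2 made up 65.3% and 58.5% of both in wild type, 67.7%, 71.8% and 75.5% in heterozygous and 72.9%, 73.3% and 74.1% in homozygous hearts, with no overlap between wild type and deletion hearts. Eif4a1 shares 65.3% of its 50-base words with 8 other genes and Eif4a2 25.8% with 2, so the shares depend on how such reads were counted.

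The eIF4E-binding proteins held the largest changes in both directions among the 60 genes. Eif4ebp2 (ENSMUSG00000020091.15, chromosome 10, 61428491 to 61452661, minus strand) was at 19.2 and 8.32 CPM in wild type, 45.3, 49.4 and 55.5 CPM in heterozygous, and 51.2, 49.3 and 52.9 CPM in homozygous hearts. The wild-type hearts stood 1.21 apart on the log2 scale, but both lay well below the deletion hearts. Eif4ebp2 rose 3.72-fold in homozygous (log2 1.89, SE 0.29, adjusted p = 0.0019) and 3.64-fold in heterozygous hearts (log2 1.86, SE 0.29, adjusted p = 0.00186). Without wild type 2 it was 1.44 (adjusted p = 0.000401) and 1.41 (adjusted p = 0.000435).

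Eif4ebp3 (ENSMUSG00000090264.1, chromosome 18, 36664060 to 36665917, plus strand) was at 10.9 and 13.4 CPM in wild type, 5.08, 3.66 and 4.48 CPM in heterozygous, and 5.31, 4.08 and 3.87 CPM in homozygous hearts. Eif4ebp3 fell by 1.46 (SE 0.24, adjusted p = 0.00214) and by 1.47 (SE 0.24, adjusted p = 0.00197), and was -1.27 (adjusted p = 0.0146) and -1.27 (adjusted p = 0.0135) without wild type 2. It shares 65.5% of its 50-base words with 1 other annotated gene, so its level is uncertain. Eif4ebp1, the best-studied 4E-BP, was at 84.3 and 86.7 CPM in wild type and 65.7 to 104 CPM in the deletion hearts, with log2 fold changes of 0.01 (adjusted p = 0.974) and -0.06 (adjusted p = 0.829). Per kilobase, Eif4ebp1 remained the main 4E-BP mRNA in every heart, at 67.0% to 68.2% of the family in wild type and 68.1% to 76.8% in the deletion hearts. Eif4ebp2 made up 5.90% and 2.44% in wild type and 13.7% to 19.4% in the others, and Eif4ebp3 25.9% and 30.6% against 8.41% to 12.7%. Eif4enif1, which carries eIF4E into the nucleus, was at 0.42 (adjusted p = 0.0509) and 0.28 (adjusted p = 0.172).

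**Figure D3:**
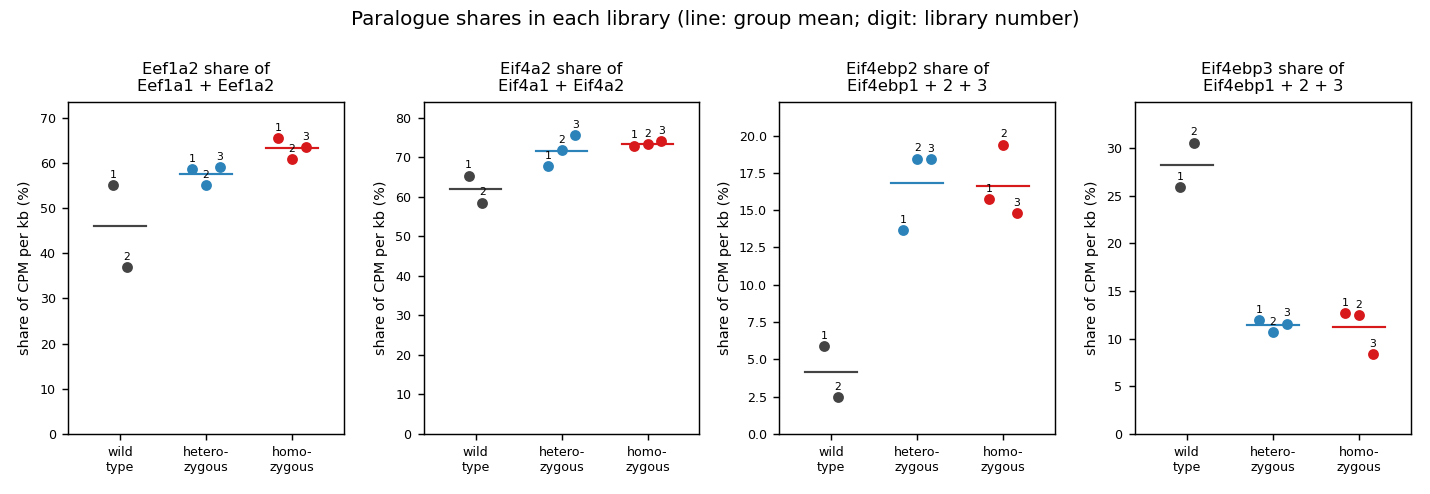
Share of each paralogue in its family (y axis, percent of summed CPM per kilobase of exon, from 0) in each library, with group means as lines. The Eif4ebp2 share is at most 5.90% in wild type and at least 13.7% in deletion hearts, the Eif4ebp3 share at least 25.9% against at most 12.7%, and the Eef1a2 share is above 60% in the 3 homozygous hearts alone. No share was tested.

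Start codon selection was mixed. Eif1, which guards against wrong start codons, was at 667 and 1105 CPM in wild type, 423, 471 and 550 CPM in heterozygous, and 477, 473 and 547 CPM in homozygous hearts. Eif1 fell by 0.83 (SE 0.20, adjusted p = 0.0132) and by 0.88 (SE 0.20, adjusted p = 0.00978), but was -0.39 (adjusted p = 0.151) and -0.44 (adjusted p = 0.0974) without wild type 2. Its paralogue Eif1b fell by 0.50 (adjusted p = 0.0136) and 0.45 (adjusted p = 0.022), and was -0.35 (adjusted p = 0.128) and -0.29 (adjusted p = 0.19) there. Eif5b, the GTPase that joins the ribosomal subunits, was at 186 and 348 CPM in wild type and 145 to 165 CPM in the deletion hearts. It fell by 0.83 (adjusted p = 0.0153) and 0.79 (adjusted p = 0.0193), and was -0.27 (adjusted p = 0.184) and -0.23 (adjusted p = 0.259) without wild type 2. After the correction Eif1 was at -0.56 (adjusted p = 0.0755) and -0.61 (adjusted p = 0.0601), and Eif1b at -0.02 (adjusted p = 0.923) and 0.03 (adjusted p = 0.904). Eif5b kept both calls there, at -1.51 (adjusted p = 0.00594) and -1.48 (adjusted p = 0.00686). In the other direction, Eif1ax, an X-linked eIF1A gene, rose by 0.41 (adjusted p = 0.0203) and 0.53 (adjusted p = 0.00629). The correction ended both calls of Eif1ax and turned the direction, to -0.26 (adjusted p = 0.185) and -0.17 (adjusted p = 0.409). Eif5, the activator of the eIF2 GTPase, was at 162 and 173 CPM in wild type, 239, 240 and 248 CPM in heterozygous and 194, 220 and 221 CPM in homozygous hearts, with 0.53 (adjusted p = 0.00888) in heterozygous and 0.34 (adjusted p = 0.0566) in homozygous hearts. Its heterozygous value was 0.04 (adjusted p = 0.874) after the correction.

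In eIF2, the beta subunit Eif2s2 rose by 0.48 (adjusted p = 0.0207) and 0.63 (adjusted p = 0.00604), from 81.9 and 90.6 CPM to 113 to 151 CPM. The correction ended both calls, at 0.21 (adjusted p = 0.283) and 0.32 (adjusted p = 0.115). The alpha subunit Eif2s1, whose phosphorylation lowers translation under stress, was at 47.5 and 50.7 CPM in wild type and 54.5 to 71.2 CPM in the deletion hearts; it rose in heterozygous hearts (0.47, adjusted p = 0.0218; -0.00, adjusted p = 0.989, after the correction) and was at 0.35 (adjusted p = 0.064) in homozygous hearts. The exchange factor of eIF2, eIF2B, had 2 of 5 subunits lower in both genotypes and none higher. Of all genes, 12.4% were lower in homozygous and 12.8% in heterozygous hearts. The catalytic Eif2b5 was at 66.6 and 87.4 CPM in wild type and 53.5 to 59.2 CPM in the deletion hearts, and fell by 0.45 in both (adjusted p = 0.0286 and 0.0276); without wild type 2 it was -0.20 (adjusted p = 0.316) and -0.21 (adjusted p = 0.294). Of 4 kinases that phosphorylate eIF2 alpha, the heme-regulated Eif2ak1 was the one called. It was at 23.7 and 13.6 CPM in wild type and 27.8 to 35.1 CPM in the deletion hearts, with log2 fold changes of 0.73 (adjusted p = 0.0307) in homozygous and 0.71 (adjusted p = 0.0347) in heterozygous hearts. Neither call held when wild type 2 was left out (0.41, adjusted p = 0.153, and 0.39, adjusted p = 0.173) or after the correction (0.54, adjusted p = 0.0879, and 0.53, adjusted p = 0.0976). Eif2ak3, the kinase of the unfolded protein response, was at 0.46 (adjusted p = 0.123) and 0.53 (adjusted p = 0.0839). Of the other factors, Eif6, which keeps the large ribosomal subunit apart from the small one, fell by 0.61 (adjusted p = 0.0256) and 0.63 (adjusted p = 0.0217), and was -0.34 (adjusted p = 0.259) and -0.37 (adjusted p = 0.215) without wild type 2. After the correction it was -0.08 (adjusted p = 0.777) and -0.10 (adjusted p = 0.712). Eif5a, which helps ribosomes through difficult peptide bonds, stood at -0.05 (adjusted p = 0.793) and -0.04 (adjusted p = 0.833).

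No factor was called between homozygous and heterozygous hearts. None of 15075 genes was called higher (0%) or lower (0%) by edgeR. At an unadjusted p under 0.05 there were 1 initiation gene, Eif2ak4, the amino-acid-sensing kinase, and 0 elongation genes, and DESeq2 called 0 factors. Eif2ak4, named for the smallest p of the initiation genes, was at 18.9, 24.1 and 21.2 CPM in homozygous and 26.9, 27.6 and 25.6 CPM in heterozygous hearts. Its log2 difference was -0.32 (SE 0.13), with an adjusted p of 1. The shares of all genes under that unadjusted p, or without overlap between these genotypes, are not given. The values of Eif2ak4 therefore show no difference particular to it. The elongation genes with the smallest p were Eef2kmt (0.26) and Eef1a2 (0.19), neither called (adjusted p = 1 for each). A p that misses the threshold does not show that the 2 genotypes are alike.

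Fold changes of the factors went with properties of their transcripts. Factors higher in homozygous hearts had a median transcript of 4658 bases, a median 3′ UTR of 1921 bases and a median GC content of 44.3%. Factors lower there had 1794 bases, 301 bases and 53.5%. All genes called higher or lower showed the same contrast, with medians of 4591 and 1915 bases in length, 2030 and 398 bases in 3′ UTR, and 45.6% and 55.6% in GC content. Each library was therefore also fitted with a smooth correction for these 3 properties. Afterwards 4 initiation genes were higher and 5 lower in homozygous hearts, beside 8.71% higher and 6.01% lower of 13874 genes, and 2 were higher and 4 lower in heterozygous hearts, beside 8.07% and 5.74%. For elongation genes the counts were 0 higher and 3 lower in both.

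In homozygous hearts the genes still called after the correction were Eef1a1 (-0.83, adjusted p = 0.00545), Eef1d (-0.97, adjusted p = 0.0177), Eef1b2 (-0.79, adjusted p = 0.0157), Eif3f (-0.66, adjusted p = 0.0128), Eif4ebp3 (-0.91, adjusted p = 0.024), Eif4ebp2 (1.71, adjusted p = 0.00313), Eif4e3 (0.78, adjusted p = 0.00855), Eif4g1 (0.53, adjusted p = 0.0336), Eif5b (-1.51, adjusted p = 0.00594) and Eif1ad (0.43, adjusted p = 0.0393). Eif2ak4 (-0.55, adjusted p = 0.0304) and Eif4g3 (-0.49, adjusted p = 0.0414) were not called without the correction and lower with it. The other calls in homozygous hearts ended. Of the 7 lower eIF3 subunits, Eif3f alone was still called. The transcripts used for Eif4a2 and Eif4g3 have an annotated 3′ UTR of 3 bases, so their corrected values rest on an incomplete model.

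**Figure D4:**
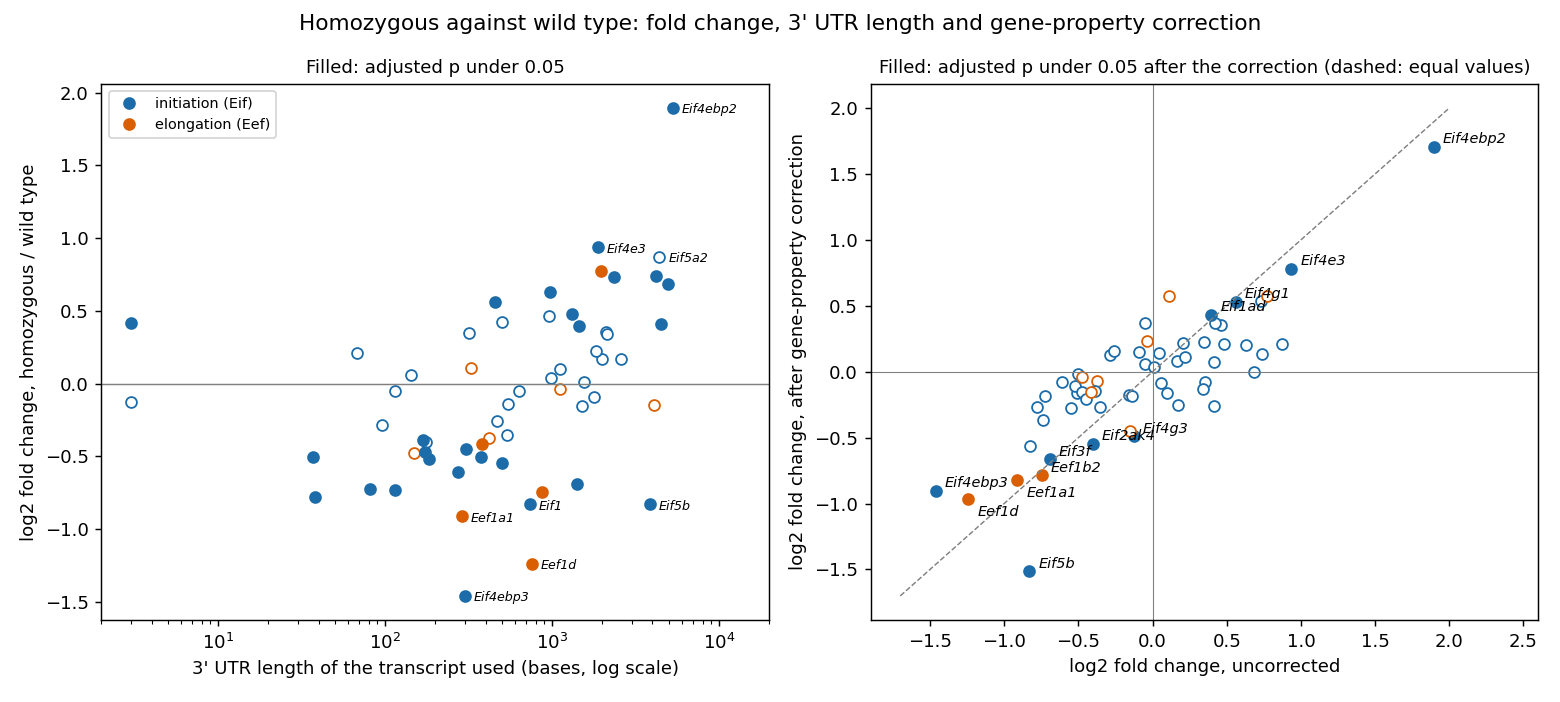
Left, log2 fold change of homozygous against wild-type hearts (y axis) by annotated 3′ UTR length in bases (x axis, log scale) for the 60 genes; right, the same fold change (x axis) against its value after the gene-property correction (y axis), with a dashed line of equality. Filled points pass an adjusted p under 0.05; Eif4ebp2 stays at 1.71 and Eif5b moves to -1.51, while Eif3a moves from 0.63 to 0.20.

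Of the calls against wild type, those of Eef1a1, Eef1d, Eif3f, Eif4ebp2 and Eif4ebp3 were kept in both genotypes under 15 other ways of processing (scaling, filter, tool, samples fitted, block, correction and each library left out), and that of Eif4e3 in homozygous hearts. With the correction and without wild type 2 together, Eif4ebp2 (1.28, adjusted p = 0.0012), Eif4e3 (0.60, adjusted p = 0.0454), Eif5b (-0.84, adjusted p = 0.0031) and Eef1a1 (-0.58, adjusted p = 0.0306) were still called in homozygous hearts. Eif4ebp2 (1.29, adjusted p = 0.00116) and Eif5b (-0.80, adjusted p = 0.00439) were called in heterozygous hearts. The background in that fit was 4.05% higher and 1.3% lower of all genes in homozygous and 3.76% and 1.37% in heterozygous hearts. There, Eef1d was at -0.43 (adjusted p = 0.11) in homozygous hearts, Eif3f at -0.43 (adjusted p = 0.0979) and Eif4ebp3 at -0.97 (adjusted p = 0.0745).

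Some calls were also lost when a single deletion heart was left out, which leaves fewer libraries to estimate the spread. A lost call need not mean a changed fold change. In the homozygous fits that lost it, Eif5b was at -0.833 to -0.805, beside -0.83 with all libraries. Eif6 was at -0.616 to -0.497, beside -0.61. Leaving out 1 of the 6 in turn, 15 of 26 initiation and 2 of 5 elongation calls in homozygous hearts, and 12 of 27 and 2 of 5 in heterozygous hearts, were lost in at least 1 fit. Calls over all genes in homozygous hearts, 2308 higher and 1872 lower, became 1573 and 991 without homozygous 3. They became 2502 and 1751 without heterozygous 1. Those in heterozygous hearts, 2295 and 1924, became 1754 and 1118 without heterozygous 2. The share of all calls lost in at least 1 fit is not given here. Eef1g lost its call in all 6 fits in both genotypes (adjusted p = 0.0513 to 0.153), and Eef1b2 in all 6 in heterozygous hearts (adjusted p = 0.0519 to 0.11). In homozygous hearts, Eef1e1 was lost without heterozygous 3 or any homozygous heart (0.75 to 0.79, adjusted p = 0.0513 to 0.0881). Eif2b5 (adjusted p = 0.0646 to 0.0901) and Eif4a2 (adjusted p = 0.0553 to 0.0947) were lost without any homozygous heart, and Eif4g1 (adjusted p = 0.0754 to 0.0785) and Eif2ak1 (0.0681 to 0.0979) without homozygous 1 or 3. Eif2s2 (adjusted p = 0.0642 to 0.07), Eif1ax (0.0533 to 0.0754), Eif6 (0.0664 to 0.0932), Eif3b (0.0517 to 0.0524) and Eif5b (0.0508 to 0.0509) were lost without homozygous 2 or 3, Eif1b without homozygous 3 (adjusted p = 0.0535) and Eif3h without homozygous 2 (adjusted p = 0.075). In heterozygous hearts, Eif2b5 was lost without any heterozygous heart (adjusted p = 0.0549 to 0.0933), Eif2ak1 without any heterozygous heart or homozygous 3 (0.0561 to 0.0738), Eif5b without heterozygous 1 or 3 (0.0533 to 0.0673), Eif6 without heterozygous 2 or 3 (0.0719 to 0.0787), Eif1b without heterozygous 1 or 2 (0.0576 to 0.0845), Eif3k and Eif3h without heterozygous 2 (0.0647 and 0.0565) and Eif2s1 without heterozygous 3 (0.0549). The fold changes of all these genes kept their direction.

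Other parts of the translation apparatus were counted for context, from lists chosen with earlier results of these data known. Of all genes, 15.3% were higher and 12.4% lower in homozygous and 15.2% and 12.8% in heterozygous hearts. Values of single genes are those of homozygous hearts unless stated. Among 6 termination and recycling genes, 3 were higher and 1 lower in both genotypes; Abce1, which splits ribosomes after termination, rose from 55.8 and 59.2 CPM to 102 to 126 CPM, by 0.92 in homozygous hearts (adjusted p = 0.000777). The release factors Gspt1 and Etf1 rose by 0.54 (adjusted p = 0.00597) and 0.46 (adjusted p = 0.0207). After the correction Abce1 was 0.429 (adjusted p = 0.0404), Gspt1 0.405 (adjusted p = 0.0368) and Etf1 0.12 (adjusted p = 0.576). Of 17 genes of mTORC1 signalling, 4 were higher and 1 lower in homozygous and 3 and 1 in heterozygous hearts (23.5% and 5.88%, then 17.6% and 5.88%), where 1 gene is 5.88% of the list. The counts were the same without wild type 2. Sesn3, a sestrin that restrains mTORC1, rose from 2.43 and 1.94 CPM to 9.39 to 14.3 CPM, by 2.27 (adjusted p = 0.000398) in homozygous and 2.45 (adjusted p = 0.000284) in heterozygous hearts, and was 1.58 (adjusted p = 0.00276) after the correction. Rps6kb2, an S6 kinase, fell by 0.93 (adjusted p = 0.00243), and Tsc1, of the complex that inhibits mTORC1, rose by 0.67 (adjusted p = 0.00311) and was 0.34 (adjusted p = 0.0901) after the correction.

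Among 10 mitochondrial translation factors, 5 were higher in both genotypes, 1 lower in homozygous and 2 lower in heterozygous hearts. Mtif2, the mitochondrial initiation factor, rose by 0.95 (adjusted p = 0.000728), and Gfm1, the mitochondrial translocase, by 0.86 (adjusted p = 0.0101), whereas Tufm, which carries tRNA there, fell by 0.57 (adjusted p = 0.0114), but was -0.42 (adjusted p = 0.0795) without wild type 2 and -0.11 (adjusted p = 0.604) after the correction. The list held 2 higher and none lower in homozygous and 4 and 1 in heterozygous hearts without wild type 2. Of 20 cytosolic aminoacyl-tRNA synthetases, 1 was higher and 7 lower in homozygous and 3 higher and 9 lower in heterozygous hearts (5% and 35%, then 15% and 45%). These counts became 1 higher and none lower, and 1 higher and 2 lower, without wild type 2, and after the correction 1 higher and 1 lower of 19 in each. Dars rose by 0.78 (adjusted p = 0.00164), and Cars and Vars fell by 0.97 (adjusted p = 0.00558) and 0.53 (adjusted p = 0.00919); without wild type 2 those were -0.54 (adjusted p = 0.0601) and -0.37 (adjusted p = 0.0865). Of 8 enzymes that modify eIF5A and eEF2, none was higher, 2 were lower in homozygous and 3 in heterozygous hearts; Dohh, the last enzyme of hypusine synthesis, fell by 0.54 (adjusted p = 0.0181), and Dph7, of diphthamide synthesis, by 0.74 (adjusted p = 0.0354), while Dhps stood at -0.51 (adjusted p = 0.0568). None of these enzymes was called without wild type 2, where Dohh was at -0.28 (adjusted p = 0.201) and Dph7 at -0.50 (adjusted p = 0.263). Of 6 poly(A)-binding genes, Paip2b, an inhibitor of poly(A)-binding protein, was the one called and rose by 1.16 (adjusted p = 0.00419); Pabpc1 and Paip2 stood at -0.28 (adjusted p = 0.0924) and 0.24 (adjusted p = 0.183). Of 3 genes that direct eIF2 dephosphorylation, Nck1 rose by 0.47 (adjusted p = 0.0299) but was 0.31 (adjusted p = 0.16) without wild type 2 and -0.13 (adjusted p = 0.508) after the correction, and Ppp1r15b and Ppp1r15a stood at 0.29 (adjusted p = 0.124) and -0.26 (adjusted p = 0.151).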

How the data were processed

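Bulk RNA sequencing counts of 8 mouse hearts were analysed. Per the labels' protocols, Trizol extraction was followed by TruSeq libraries and Illumina sequencing. The authors deposited unnormalized counts by gene symbol, with a column for each library. The submitters' processing notes name mm10 and the tools Trimmomatic (0.36), HISAT2, Subread, featureCounts and DESeq2; which annotation was counted, whether strand was used and what became of reads with several matches is not given in the sources used here. Counts of a gene that overlaps another or has near-identical copies are therefore uncertain.

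Genes passing filterByExpr were scaled by TMM and fitted with the robust quasi-likelihood model of edgeR 4.0.16 (R 4.3.3) on genotype, with all 8 libraries, and tested two-sided by the F test with Benjamini-Hochberg adjustment over 15075 genes and a threshold of 0.05. The spread rests mostly on the deletion libraries, and nothing in the labels beyond the shared litter says how the hearts are related, so p-values measure spread between these samples, and adjusted p-values against the 2 unlike wild-type libraries can be too small. The gene-property correction fitted each library's deviation by splines of GC content, 3′ UTR length and transcript length (4 df for each, from GENCODE vM21), for 13874 genes; 63 of 63 members matched by symbol. Shared 50-base words were counted between GENCODE transcripts. Levels per kilobase use the union of exons. On simulated counts for homozygous against wild type with no trend, 48% of 2-fold and 92% of 4-fold changes were recovered with 8 false calls. With a set trend in 3′ UTR length and GC content, alike in both wild-type libraries, false calls were 3881 without and 9 with the correction. There, 65.7% of 2-fold and 89% of 4-fold changes were recovered without the correction, and 48.5% and 75% with it. The trend was set in properties that the correction fits, so the drop in false calls was built in. The simulation cannot show how well the correction suits these hearts.

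The members and lists were chosen with earlier results of these data known. Named were all elongation genes, the 8 initiation genes called higher and the 8 called lower with the smallest p in each wild-type comparison, a fixed panel (Eif1, Eif2s1, Eif2b5, Eif2ak3, Eif3a, Eif4e, Eif4a1, Eif4a2, Eif4g1, Eif4g2, Eif4ebp1, Eif4ebp2, Eif5, Eif5a and Eif6), 2 genes per class for homozygous against heterozygous, and up to 3 genes of each other list. Other factors named in the text (such as Eif3l, Eif2ak1, Eif1ad and Eif4g3) complete a count of 1 role or setting and were chosen after their values were seen, as were the printed transcript starts. Alternatives covered scaling by DESeq2 size factors or total counts, no low-count filter, the DESeq2 1.42.0 test, only the groups compared, a replicate block, the correction, and each library left out; the correction combined with leaving out wild type 2 was added after the data were seen.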

Additional observations from a re-analysis of the deposited data

How the results depend on the processing

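The 2 wild-type libraries limit what can be read. Leaving out wild type 2 leaves 1 wild-type heart, whose spread is then assumed to equal that of the deletion hearts; of the calls in homozygous hearts, 9 of 26 initiation and 2 of 5 elongation calls were kept then, and 13 of 27 and 2 of 5 in heterozygous hearts. After the gene-property correction 7 of 26 and 3 of 5 were kept in homozygous and 4 of 27 and 3 of 5 in heterozygous hearts. Calls over all genes fell with the correction too. They went from 15.3% higher and 12.4% lower to 8.71% and 6.01% in homozygous hearts. In heterozygous hearts they went from 15.2% and 12.8% to 8.07% and 5.74%. Low counts limit Eif5a2 (2.05 to 5.59 CPM, SE 0.36), the gene with the widest error. The cause of each change given here was not tested.

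Counts of initiation genes in homozygous against wild-type hearts, 11 higher and 15 lower, became 4 and 5 with the correction and 2 and 1 with the correction and no wild type 2; the higher count was 7 when only the groups compared were fitted. In heterozygous hearts the 13 higher and 14 lower became 2 and 4 with the correction, 1 and 1 with the correction and no wild type 2, and 8 and 9 with only the groups compared. The elongation counts, 1 higher and 4 lower, went to 0 higher with the correction in both genotypes; with the correction and no wild type 2 they were 0 higher and 1 lower in homozygous and 0 and 0 in heterozygous hearts, and with only the groups compared 0 and 2 in heterozygous hearts. Over all genes, fitting only the groups compared gave 2000 higher of 14849 in homozygous hearts, against 2308 of 15075 in the main fit. In heterozygous hearts it gave 1571 higher and 1097 lower of 14784, against 2295 and 1924 of 15075. Replicate numbers did not pair the samples: same-numbered libraries correlated in their deviations at -0.02 to 0.18 between heterozygous and homozygous hearts. With a replicate block the initiation genes higher in homozygous hearts were 7 and the elongation genes lower in heterozygous hearts 2. Of all 15075 genes, 1975 were higher in homozygous and 1399 lower in heterozygous hearts with the block, against 2308 and 1924 without it. In that fit, 3 uncalled genes among those named by rule crossed 0: Eef2kmt (0.002) and Eif4ebp1 (-0.086) in homozygous and Eef2k (0.007) in heterozygous hearts.

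With single libraries left out, initiation genes higher in homozygous hearts ranged from 5 (without homozygous 3) to 15 (without heterozygous 1) and those lower from 2 (without wild type 2) to 17 (without wild type 1); elongation genes ranged from 0 to 1 higher and 2 to 6 lower. In heterozygous hearts initiation genes lower ranged from 3 to 15, and elongation genes from 0 to 1 higher and 2 to 6 lower, with wild type 2 setting the low end for initiation. Calls over all genes moved as well. Those higher in homozygous hearts were 1573 of 15013 without homozygous 3 and 2502 of 15021 without heterozygous 1. With all libraries they were 2308 of 15075. No factor was called between homozygous and heterozygous hearts in any of these fits.

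Signs changed in some of the genes named by rule for each comparison, all of them uncalled under the alternative except Eif5a in heterozygous hearts (adjusted p = 0.0498 with the correction). The values below cover those genes only, and genes outside the rule turned too. Eif1b, called lower in heterozygous hearts at -0.45, was 0.027 with the correction. Eif2b4, called lower in homozygous hearts at -0.51, was 0.066 with the correction and no wild type 2. With the correction, homozygous values were 0.233 for Eef2kmt, -0.002 for Eif4g2, -0.263 for Eif1ax, -0.076 for Eif2s1, -0.129 for Eif5 and 0.366 for Eif5a; heterozygous values were 0.399 for Eef1a2, 0.004 for Eef2kmt, -0.169 for Eif1ax, -0.004 for Eif2s1 and 0.392 for Eif5a. With the correction and no wild type 2, homozygous values were 0.132 for Eef2, 0.098 for Eef1akmt1, 0.456 for Eef2kmt, -0.055 for Eif1ax, 0.273 for Eif5a and 0.058 for Eif6; heterozygous values were 0.109 for Eef1a2, 0.143 for Eef2, 0.222 for Eef2kmt, -0.06 for Eif4e, 0.115 for Eif4a1, 0.295 for Eif5a and 0.033 for Eif6.

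Among the genes named by rule, leaving out 1 library moved these uncalled ones across 0. In homozygous hearts Eef1a2 ranged from -0.114 to 0.428, Eef2k from -0.512 to 0.398, Eef2kmt from -0.218 to 0.213, Eif4ebp1 from -0.15 to 0.176 and Eif5a from -0.076 to 0.002. In heterozygous hearts Eef1a2 ranged from -0.302 to 0.241, Eef2k from -0.424 to 0.487, Eif4a1 from -0.259 to 0.09, Eif4ebp1 from -0.143 to 0.029 and Eif5a from -0.056 to 0.024. Scaling by DESeq2 size factors or total counts kept the median log2 fold change of all genes against wild type between -0.03 and -0.01 and changed the sign of no named factor. The DESeq2 test called 2653 higher and 2221 lower of all genes in homozygous hearts, against 2308 and 1872.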
